A study of Rattus norvegicus with 33 samples.

Results

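Limosilactobacillus is a genus of lactic acid bacteria that was split off from Lactobacillus, and its best known member of the rodent gut is Limosilactobacillus reuteri. Every bacterial species row whose genus was given as Limosilactobacillus was taken, together with the row of the genus itself. This gave 7 species rows of the 5543 bacterial species in the percent table and 1 genus row of 1455 genera: L. reuteri, L. vaginalis, L. frumenti, L. fermentum, L. mucosae, L. gastricus and L. pontis. All DNA in the contents of the cecum, where the rat's large intestine begins and much of its fibre is fermented, had been sequenced from 33 rats. The groups were 10 female and 7 male SHR rats, which become hypertensive spontaneously as adults, and 9 female and 7 male WKY rats, the normotensive strain they were set against. No treatment is given in the labels, the rats were 14 to 15 weeks old, and each library came from 1 rat. No cage, litter or batch was given, and rats of a group were treated as independent. The sample numbers in the titles form a separate run for each strain. What their order stands for is not given, so anything that went with it cannot be told apart from strain.

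Members of this genus ferment sugars to a mixture of lactate, carbon dioxide and ethanol or acetate, and they need rich growth media, as most lactic acid bacteria do. In mice and rats L. reuteri grows as a film on the lining of the forestomach and is shed from there into the lower gut. Rodent strains of it are known for an accessory secretion system, SecA2-SecY2, which exports a large surface adhesin. Some strains of L. reuteri turn glycerol into 1,3-propanediol and the antimicrobial reuterin with a diol dehydratase that needs vitamin B12. Whether the strains of these rats do so was not tested. L. vaginalis was described from the human vagina and is also found in the gut of rodents. L. mucosae carries mucus-binding proteins and was described from pig intestine, L. gastricus was described from the human stomach, L. fermentum is common in fermented foods and in the gut, and L. pontis and L. frumenti were described from rye dough.

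The libraries held 163140 to 886827 counted reads, and those of SHR rats were the shallower ones. The median was 365717 reads in SHR females and 706634 in WKY females, and 547938 in SHR males and 688051 in WKY males. The 8 genera fixed as residents of the rodent cecum, among them Muribaculum, Duncaniella and Lactobacillus, together took 23.7% to 49.1% of reads, and none of the 8 had 0 reads in any rat. The genus row equalled the sum of its species and of the reads named to the genus alone in every library. Each of the 7 species had reads in all 33 rats and passed the filter on low values, a normalized value of at least 10 in at least 7 rats. A normalized value is the read count divided by a size factor of the library, and a percent is the share of all counted reads.

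Limosilactobacillus was one of the most abundant genera, and its level differed widely among rats of 1 group. In females it took 1.52 ± 1.5% of reads in SHR rats, against 3.43 ± 1.94% in WKY rats (mean ± SD). In males it took 1.35 ± 0.776% in SHR rats, against 5.52 ± 4.19% in WKY rats. By mean percent it ranked 13 of 1455 genera in both sexes of SHR rats, against 6 in WKY females and 4 in WKY males. The highest rat was WKY male 5 with 13.9%, and the lowest was SHR female 1 with 0.331%. The 95% Wilson interval of the genus spanned at most 4.98% of its value to either side in any library. No molecular identifiers were used, reads are therefore not counts of separate molecules, and these intervals cover counting error only.

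L. reuteri carried most of the genus. Its reads ran from 0.256% in SHR female 1, with a median of 0.896%, to 4.04% in SHR female 10, against 0.811% in WKY female 6, a median of 1.94%, and 4.99% in WKY female 1. In males it ran from 0.451% through a median of 0.899% to 1.70% in SHR rats, against 1.89%, 3.02% and 7.90% in WKY rats. SHR and WKY males did not overlap, whereas 2 SHR females, numbers 9 and 10 with 3.31% and 4.04%, lay above the median of WKY females. Those 2 rats also had the shallowest libraries of the study, with 163140 and 210375 reads. By mean percent L. reuteri ranked 8 among species in SHR females, against 6 in WKY females, and 11 in SHR males, against 5 in WKY males.

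**Figure D1:**
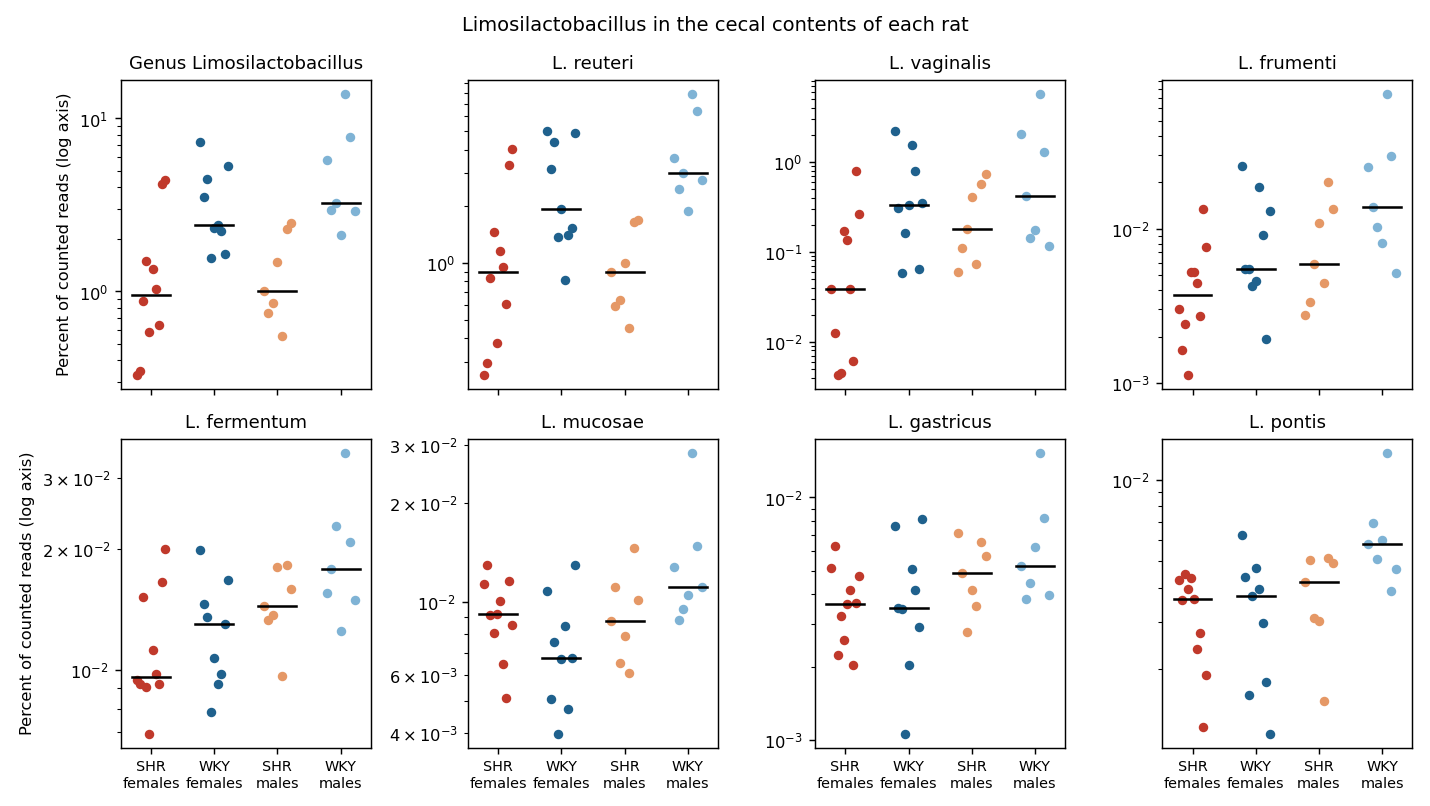
Percent of counted reads (log axes, a range of its own in each panel) of the genus Limosilactobacillus and of its 7 species, 1 point per rat and a line at the group median. L. reuteri in SHR males lies between 0.451% and 1.70% and does not overlap with WKY males, between 1.89% and 7.90%.

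L. vaginalis was the only other member above 0.1% of reads on average, and it varied most among rats. In females it ran from 0.00432% in SHR female 3, with a median of 0.0385%, to 0.781% in SHR female 9, against 0.0587% in WKY female 3, a median of 0.327% and 2.21% in WKY female 1. In males it ran from 0.0602% through a median of 0.181% to 0.732% in SHR rats, against 0.117%, 0.412% and 5.70% in WKY rats. Of the SHR females 6 of 10 lay below every WKY female, and in males the strains overlapped in 4 of 7 SHR rats. The number of reads behind a value ran from 18 to 44111.

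The other 5 species were rare in every group. L. fermentum averaged 0.0144% over all rats, L. frumenti 0.0110%, L. mucosae 0.00974%, L. gastricus 0.00478% and L. pontis 0.00409%. L. pontis had between 2 and 97 reads, and in the library with 2 reads, SHR female 9, the 95% interval was wider than the value. WKY male 5 held the highest percent of each of the 7 species among all 33 rats. Closely related species hold stretches of the same sequence, and how the deposited counts split such reads is not given in the sources used here.

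The question of the study's design was how the cecal community differed between the hypertensive and the normotensive strain in each sex. In females L. reuteri fell in SHR rats, and it was the only one of the 7 species that passed the test. The limma fit on log2(normalized value + 1) over all 33 rats gave a log2 fold change of -1.73 ± 0.48 (SE), 3.31-fold lower in SHR females, with a Benjamini-Hochberg adjusted p of 0.0449 over 4641 species. The normalized value was 6158 ± 5918 in SHR females and 17184 ± 11892 in WKY females (mean ± SD, n = 10 and 9), and it lay below the WKY median in 8 of 10 SHR females. Of all 4641 species tested 108 passed in either direction, 2.33%, against 1 of 7 members. The call is close to the threshold: it held in 13 of the 33 fits that left out 1 rat, and it was lost without any of SHR females 1 to 8, SHR male 1, WKY females 1 to 5 and 7 to 9, or WKY males 1, 3 and 7, at an adjusted p of at most 0.0917. On recovered reads it did not pass with edgeR (adjusted p 0.0856, 3.71% of species called) or DESeq2 (adjusted p 0.0882, 5.26% called). Without the 3 shallowest libraries, SHR females 9 and 10 and SHR male 4, the log2 fold change was -2.23 with an adjusted p of 0.00196. That fit leaves out the 2 SHR females above the WKY median, with 15423 and 17991, so a larger drop was fixed in advance. It therefore cannot tell an effect of depth.

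L. vaginalis had the largest fold change of the 7 in females, -3.44 ± 0.99 on the log2 scale, and did not pass (limma adjusted p 0.0599). Its normalized value was 673 ± 1116 in SHR females and 3798 ± 4489 in WKY females (mean ± SD), so within each strain the SD exceeded the mean. Without the 3 shallowest libraries its log2 fold change was -4.30 and its adjusted p 0.0129, and 2 of 7 members then passed, beside 4.4% of all species. SHR females 9 and 10, left out there, held the highest L. vaginalis values of their group, 3634 and 1162, so a larger drop was again fixed in advance. L. vaginalis also passed without SHR female 9 (adjusted p 0.0214), SHR female 10 (0.0435) or WKY male 5 (0.0493). L. frumenti had a log2 fold change of -1.32 ± 0.55 (adjusted p 0.195) and L. fermentum one of -0.52 ± 0.23 (adjusted p 0.216). L. gastricus stood at -0.38 ± 0.31, L. pontis at -0.34 ± 0.27 and L. mucosae at -0.02 ± 0.25, with adjusted p-values from 0.547 to 0.981. For L. mucosae the direction depends on the scale, since the percent of reads gave +0.31 and the centred log-ratio +0.03. The median over the 7 members was -0.52, beside a median of -0.07 over all species.

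In males L. reuteri also fell in SHR rats, and no SHR male reached the level of any WKY male. The normalized value was 4509 ± 2217 in SHR males, with a highest of 7821, and 28612 ± 24482 in WKY males, with a lowest of 10565 (mean ± SD, n = 7 each). The log2 fold change was -2.40 ± 0.55, 5.29-fold lower in SHR males, with a limma adjusted p of 0.0327. Of all species 25 passed in either direction, 0.539%, against 1 of 7 members, and 0.409% of species had normalized values that did not overlap between the strains. The call held in each of 11 other settings and in 25 of the 33 fits without 1 rat. It was lost without SHR male 1, 2, 3, 4 or 5 or WKY male 1, 5 or 6, at an adjusted p of at most 0.0850. WKY males 5 and 6 held the highest normalized values, 62565 and 65639.

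The other 6 species all had negative fold changes in males and none passed. L. pontis came nearest, with -1.10 ± 0.32 (limma adjusted p 0.0907), followed by L. mucosae with -0.90 ± 0.29 (adjusted p 0.141) and L. fermentum with -0.78 ± 0.27 (adjusted p 0.154). L. frumenti had -1.63 ± 0.64, L. gastricus -0.72 ± 0.36 and L. vaginalis -1.86 ± 1.15, with adjusted p-values from 0.233 to 0.501. The median over the 7 members was -1.10, beside -0.02 over all species. On the recovered reads edgeR called 2 of the 7, L. reuteri and L. pontis, beside 1.27% of all species. DESeq2 called 5, these and L. mucosae, L. fermentum and L. frumenti, beside 3.75% of all species. Without WKY male 7 L. pontis also passed in limma (adjusted p 0.0393).

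**Figure D2:**
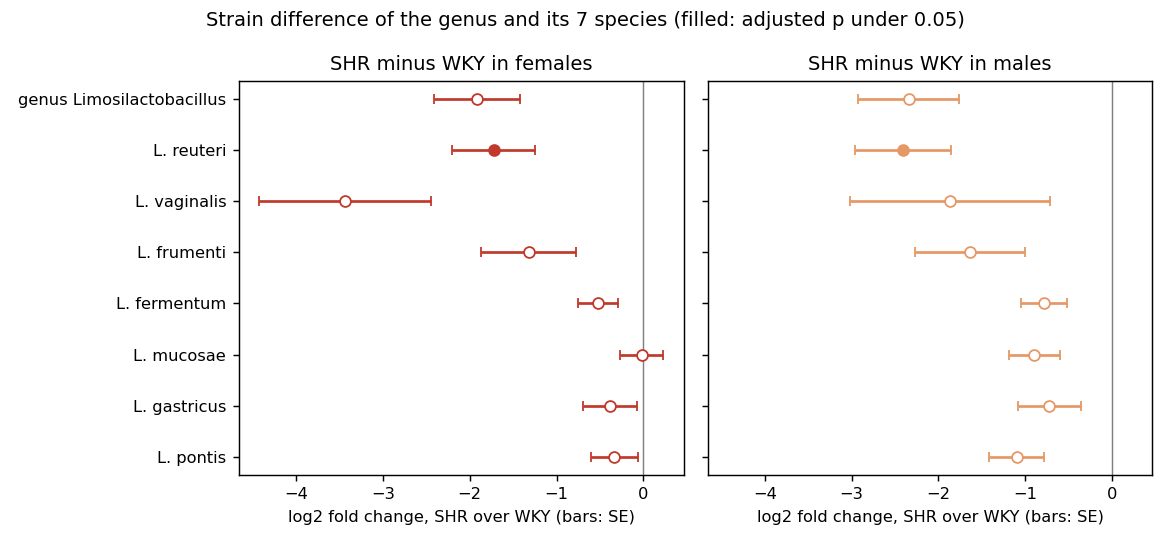
log2 fold change of SHR over WKY for the genus and its 7 species, in females on the left and in males on the right, with bars of 1 SE and filled points where the limma adjusted p is under 0.05. L. reuteri is filled in both panels, at -1.73 in females and -2.40 in males, and L. mucosae lies at -0.02 in females.

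The genus as a whole did not pass in either sex, although its fold changes were near those of L. reuteri in size. In females its log2 fold change was -1.92 ± 0.50 (limma adjusted p 0.0504), with 13 of 1418 genera called (0.917%). In males it was -2.34 ± 0.58 (adjusted p 0.0665), where limma called 0 genera (0%) and 164 had an unadjusted p under 0.05. In males edgeR, which called 0.917% of genera, gave Limosilactobacillus an adjusted p of 0.0311, and DESeq2, which called 1.83%, one of 0.00663. Leaving out 1 rat made the call in 8 of 33 fits in females, with the lowest adjusted p of 0.0139 without SHR female 10, and in 3 of 33 in males, with the lowest of 0.0297 without WKY male 7. Normalized values of the genus did not overlap between the strains in males, with 3031 to 10910 in SHR rats and 11844 to 110037 in WKY rats, as for 0.282% of genera. On percent of reads they did overlap, with up to 2.50% in SHR males and down to 2.12% in WKY males, and 5 of 7 SHR males lay below every WKY male. On percent of reads the genus passed in both sexes, with adjusted p-values of 0.0239 in females, where 11.9% of genera passed, and 0.0348 in males, where 5.22% passed. The median log2 fold change over all species also differed between the scales. It was -0.07 in females and -0.02 in males on normalized values, and 0.23 and 0.28 on percent of reads. The pseudocount differed too, 1 on normalized values and 0.001 in percent, and why the calls differ was not tested. On the percent scale, where 9.14% of species passed in females and 3.66% in males, L. reuteri was called in both sexes and L. vaginalis in females.

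Between the sexes no member passed in limma in either strain. In SHR rats L. reuteri differed by 0.01 ± 0.51 on the log2 scale (female minus male, limma adjusted p 0.999), and limma called 0 of 4641 species (0%), with 167 at an unadjusted p under 0.05, while edgeR and DESeq2 called 0 as well. L. vaginalis in SHR females was at -2.33 ± 1.06 relative to SHR males (adjusted p 0.988). In WKY rats all 7 species had negative values in females relative to males, from -0.63 ± 0.25 for L. fermentum to -1.16 ± 0.60 for L. frumenti, with adjusted p-values from 0.102 to 0.819, where 33 species passed (0.711%). The lowest of these p-values was that of L. pontis at -0.99 ± 0.30, followed by L. mucosae at -0.87 ± 0.28 with 0.121. On the recovered reads L. pontis was called lower in WKY females by edgeR (adjusted p 0.0412) and by DESeq2 (0.0194), which also called L. mucosae (0.0333). The shares of all species that edgeR and DESeq2 called in this comparison are not given here, so these calls cannot be set against a background. In limma L. pontis passed without WKY female 1 (0.0435) or WKY male 7 (0.0423). The test of whether the strain difference differed between the sexes passed for no member: the interaction was 0.68 ± 0.73 for L. reuteri (adjusted p 0.902) and -1.57 ± 1.52 for L. vaginalis (adjusted p 0.888), with 1 of 4641 species called (0.0215%). The approximate 95% interval of the L. reuteri interaction, the estimate and 2 SE to either side, ran from -0.78 to 2.14.

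L. reuteri held most of the genus in both strains, and its share passed no test between them. L. reuteri took 86.6 ± 10.2% of the genus's reads in SHR females and 78.7 ± 20.6% in WKY females (exact permutation p 0.316 over 92378 splits, adjusted p 0.633 over 4 comparisons). In males it took 76.0 ± 7.92% in SHR rats and 80.2 ± 14.7% in WKY rats (exact p 0.522, adjusted p 0.695). SHR females stood 10.5 percentage points above SHR males (exact p 0.0400, adjusted p 0.160), and 12.98 points without SHR female 5 (exact test, adjusted p 0.0245). The share was lowest in WKY female 6, where L. reuteri held 33.3% of the genus and L. vaginalis 63.7%, with 5729 and 10950 reads. In the other 32 rats L. reuteri had more reads than L. vaginalis. Reads named to the genus alone made up 0.797% to 0.896% of the genus on average in the 4 groups.

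**Figure D3:**
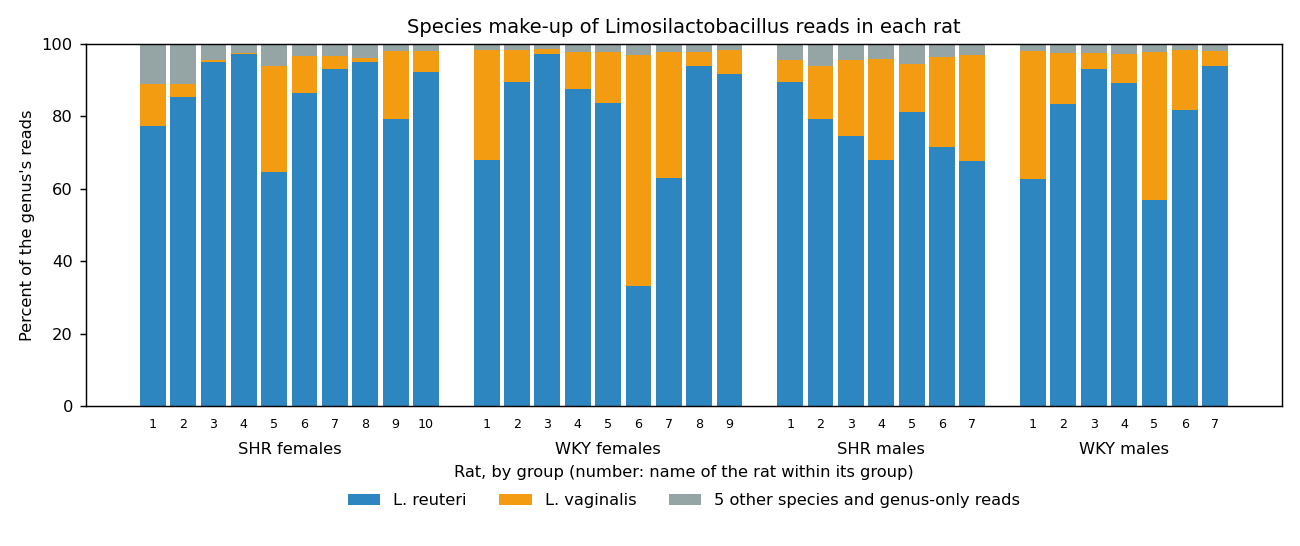
Share of each rat's Limosilactobacillus reads named to L. reuteri, to L. vaginalis and to the 5 other species or the genus alone, with 1 bar per rat. L. vaginalis exceeds L. reuteri in WKY female 6 alone, at 63.7% against 33.3%.

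Reads of the 6 other species were also set against those of L. reuteri in the same library. All such ratios share L. reuteri as the denominator, which was itself lower in SHR rats, and the log2 ratio was higher in SHR rats for 4640 of 4640 other species in males (100%) and for 4635 in females (99.9%). An unadjusted exact permutation p under 0.05 was reached by 97.7% of these species in males, against 4 of 6 members, and by 81.8% in females, against 3 of 6. The median difference over all of them was 2.39 in males and 1.71 in females, above the members' medians of 1.41 and 1.30. Passing this test is therefore no result about the members, and their values are given as a description.

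In males the log2 ratio of L. fermentum to L. reuteri reads was -5.92 ± 0.504 in SHR rats and -7.54 ± 0.451 in WKY rats, a difference of 1.63. L. mucosae differed by 1.51, L. gastricus by 1.69, L. pontis by 1.31, L. frumenti by 0.77 and L. vaginalis by 0.54. In females L. mucosae differed by 1.72, L. pontis by 1.46, L. gastricus by 1.38, L. fermentum by 1.21 and L. frumenti by 0.42, while L. vaginalis stood 1.71 lower in SHR rats, at -4.46 ± 2.36 in SHR females and -2.74 ± 2.14 in WKY females. After adjustment over 24 exact tests 4 members passed in males and 2 in females, L. mucosae and L. fermentum. The count of 2 became 0 without WKY female 1, 2 or 3, 1 without SHR female 1, 2, 3 or 8 or WKY female 9, 3 without SHR female 10 or WKY female 6, and 4 without SHR female 9. In males 39.8% of all species had ratios that did not overlap between the strains, against 3 of 6 members, and in females 0.129% of species and 0 of 6 members did.

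**Figure D4:**
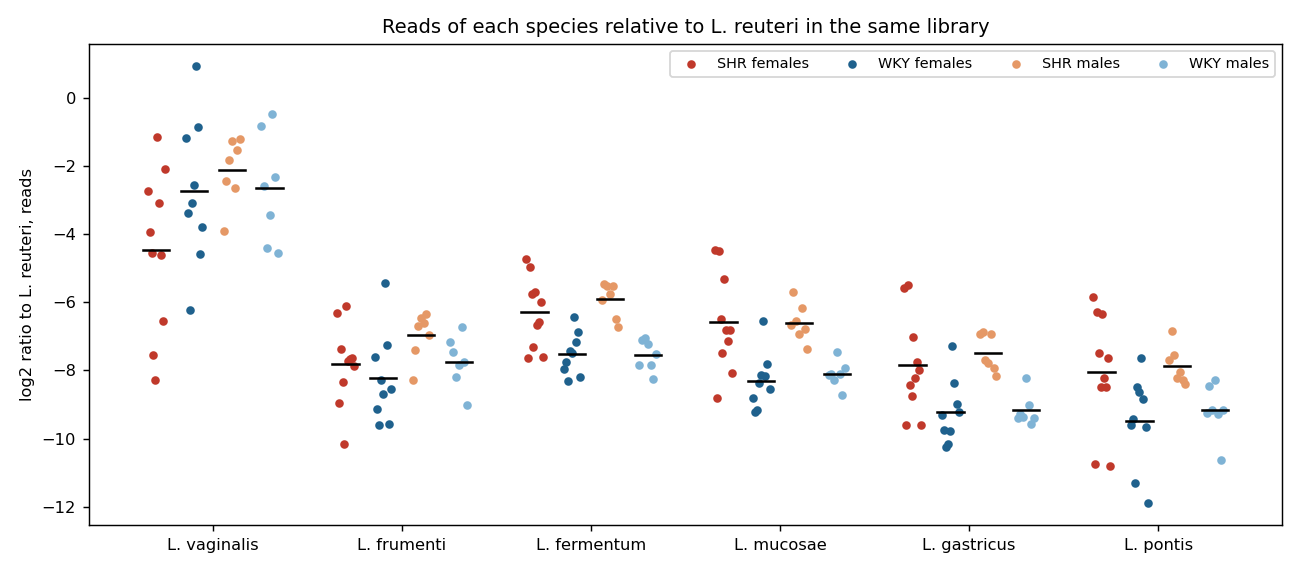
log2 ratio of reads of each of 6 species to reads of L. reuteri in the same library, 1 point per rat and a line at the group mean. L. fermentum, L. mucosae and L. gastricus in SHR males lie above all WKY males, and L. vaginalis is above 0, more reads than L. reuteri, in WKY female 6 alone.

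Limosilactobacillus was also set against the larger genus Lactobacillus, its relative in the same family, which includes the main gut lactobacilli of rodents. The mean percent of Lactobacillus was 3.41 in SHR females and 8.66 in WKY females, and 5.48 in SHR males and 10.9 in WKY males. The log2 ratio of Limosilactobacillus to Lactobacillus reads was -1.12 ± 0.612 in SHR females and -1.10 ± 0.847 in WKY females (exact p 0.958, adjusted p 0.958 over 4 comparisons). In males it was -1.82 ± 0.899 in SHR rats and -0.987 ± 1.19 in WKY rats (exact p 0.157, adjusted p 0.314), and without WKY male 4 the difference of -0.84 became -1.28 (exact test, adjusted p 0.0466). The strains overlapped in both sexes, and a p that misses the threshold does not show that the ratio is equal. The log2 fold change of Lactobacillus itself was -1.90 ± 0.58 in females (limma adjusted p 0.109) and -1.51 ± 0.68 in males (adjusted p 0.384).

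Of 25 other genera of the family Lactobacillaceae in a fixed list, 22 were in the table, and 0 of them passed between the strains in females or in males, with 3 and 7 at an unadjusted p under 0.05. The list's median log2 fold change was -0.27 in females and -0.55 in males, beside -0.05 and -0.01 over all genera. The most abundant after Lactobacillus were Ligilactobacillus, with 0.865% of reads in SHR females and 0.493% in WKY females (log2 fold change 0.44 ± 0.59, limma adjusted p 0.764), and Companilactobacillus (-0.51 ± 0.31, adjusted p 0.398). Between the sexes of WKY rats 2 of the 22 were lower in females, where 34 of 1418 genera passed (2.40%). They were Lacticaseibacillus with -0.77 ± 0.17 (adjusted p 0.0311) and Secundilactobacillus with -1.10 ± 0.29 (adjusted p 0.0353), named after their values were seen. Of 7 genera of lactic acid cocci and their relatives 0 passed in any comparison, with 1 at an unadjusted p under 0.05 between strains in females and 0 in males. Streptococcus took 0.544%, Enterococcus 0.221% and Lactococcus 0.0750% of reads over all rats.

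The species most alike to L. reuteri across rats were sought by correlating residuals from the 4 group means on the log2 scale over 33 rats. Inside the genus L. fermentum had a Pearson r of 0.84, L. frumenti 0.59, L. mucosae 0.51, L. gastricus 0.47 and L. vaginalis 0.46, while L. pontis had -0.05. Outside the genus, among 4634 species with a median r of -0.12, the 5 highest were all named as Lactobacillus: L. iners with 0.811, L. sp. NFFJ11 with 0.810, L. apis with 0.783, L. kullabergensis with 0.772 and L. helsingborgensis with 0.760. L. iners is known from the human vagina, and L. apis, L. kullabergensis and L. helsingborgensis from honeybees. Of the 20 most alike species 17 belonged to the family Lactobacillaceae. The values share libraries, depth and possibly reads, and are given as a description.

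The deposited functional table was read for 16 subsystems picked by terms in their names, such as SecA2, propanediol, urease, cobalamin or lactose. The terms also drew in subsystems known from other bacteria, namely Xanthan Exopolysaccharide Biosynthesis and Export of Xanthomonas and the YjbEFGH locus of enterobacteria, both with mean normalized values under 1 in every group. Such a subsystem sums reads of every organism in the library, so a value cannot be assigned to Limosilactobacillus. In females 3 of the 16 passed, of 1024 functions tested with 90 called (8.79%), 1 lower and 2 higher in SHR rats. The subsystem that fell was the SecY2-SecA2 Specialized Transport System, which exports glycosylated adhesins in gram-positive bacteria. Its normalized value ran from 5.23 through a median of 37.1 to 190 in SHR females, against 33.4, 132 and 335 in WKY females, and 9 of 10 SHR females lay below the WKY median. The log2 fold change was -1.84 ± 0.55 (limma adjusted p 0.0302), from 6 to 64 reads a library in SHR females and 43 to 462 in WKY females. The call held in 25 of 33 fits without 1 rat and was lost without SHR female 1, 2 or 8 or WKY female 1, 2, 3, 8 or 9, at an adjusted p of at most 0.0665.

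The 2 subsystems that were higher in SHR females were those named Cobalamin and Exopolysaccharide Biosynthesis. Cobalamin averaged 459 ± 26.8 in SHR females and 376 ± 73.2 in WKY females (normalized value, mean ± SD), a log2 fold change of 0.31 with an adjusted p of 0.0366 by limma. Exopolysaccharide Biosynthesis averaged 1011 ± 71.3 in SHR females and 893 ± 63.0 in WKY females, a log2 fold change of 0.18 with a limma adjusted p of 0.0244. Cobalamin held in 23 of 33 fits without 1 rat, lost without SHR female 2, 4, 6, 7, 8 or 10 or WKY female 2, 3, 5 or 9 (adjusted p at most 0.0901), and Exopolysaccharide Biosynthesis in 31, lost without SHR female 1 (0.0566) or WKY female 3 (0.0633). Cobalamin was called in 6 of 9 other settings, and did not pass on the centred log-ratio (adjusted p 0.133), with only the 2 groups fitted (0.0520) or without the 3 shallowest libraries (0.0515). Exopolysaccharide Biosynthesis did not pass on the centred log-ratio (0.346). The other subsystems of vitamin B12 did not pass in females, with Cobalamin synthesis at 0.22 ± 0.11 (adjusted p 0.209), Coenzyme B12 biosynthesis at 0.11 ± 0.19 (0.749) and B12 duf71, with mean values under 1 in every group, at -0.0022 ± 0.31 (adjusted p 1). In males the lowest adjusted p of these 3 was 0.120, for Cobalamin synthesis at -0.34 ± 0.13.

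Another 9 subsystems of the list did not pass in either sex, with limma adjusted p-values from 0.129 to 1. Urease subunits had a log2 fold change of -0.27 in females and -0.28 in males, Fermentations: Lactate -0.27 and -0.35, Propanediol utilization -0.16 and -0.53, Mannitol Utilization 0.05 and -0.42, and the Arginine Deiminase Pathway 0.17 and 0.03. Lactose and Galactose Uptake and Utilization had -0.10 in both sexes, Lactose utilization 0.02 and 0.0013, the YjbEFGH locus -0.48 and -0.50 and the xanthan subsystem -0.08 and 0. The 16 had a median log2 fold change of -0.04 in females, beside -0.05 over all functions. In males their median was -0.23, beside -0.02 over all functions.

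In males 1 of the 16 passed, of 27 functions called (2.64%). Glycerol fermentation to 1,3-propanediol, the pathway that in some strains of L. reuteri runs through the diol dehydratase, fell in SHR males. It ran from 17.9 through a median of 28 to 44.1 in SHR males, against 34.8, 74.8 and 183 in WKY males, and 6 of 7 SHR males lay below every WKY male. These values rest on few reads, 14 to 44 a library in SHR males and 38 to 217 in WKY males. The log2 fold change was -1.43 ± 0.31 (limma adjusted p 0.00951), and the call held in all 33 fits without 1 rat and in 7 of 8 other settings, but not when only the 2 groups compared were fitted (adjusted p 0.112). It was also lower in WKY females than in WKY males, with 15.3 to 60.7 in females and the values above in males (-1.29 ± 0.29, adjusted p 0.0151), the single one of the 16 to pass there, where 14 functions were called (1.37%). That call was lost without WKY male 2, 3 or 4 (adjusted p at most 0.0686) or with only the 2 groups fitted (0.130). Between the strains in females it differed by -0.32 (adjusted p 0.484), and the strain by sex difference of 1.11 did not pass (adjusted p 0.426). SecY2-SecA2 in males had -1.30 (adjusted p 0.250), with WKY male 4 the highest of all rats at 418. That rat had the lowest L. reuteri of its group, 10565, and its group's lowest log2 ratio of Limosilactobacillus to Lactobacillus reads, -3.63. WKY female 8, lowest of WKY females in that ratio at -2.64, had a SecY2-SecA2 value of 186 beside L. reuteri at 9742. The SHR rats lowest in it, male 5 and female 7, had 50.9 and 40.1, near their group medians of 54.2 and 37.1. A relation of SecY2-SecA2 to Lactobacillus was not tested.

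Within groups, L. reuteri was related to the functions over 60 relations, with p-values from permutation and adjusted over all of them. SecY2-SecA2 in SHR females passed, with a Pearson r of 0.922 (permutation p 0.00037, adjusted p 0.0222) and a Spearman rho of 0.939 (permutation p 0.00024, adjusted p 0.0144) over 10 rats. Without the 2 rats farthest from the median r was 0.906, and without SHR females 9 and 10, the shallowest libraries and the highest in L. reuteri, it was 0.855 over 8 rats (exact p 0.0116, a check added after the data were seen). In WKY females r was 0.728 (exact p 0.0307, adjusted p 0.230), in SHR males 0.678 (exact p 0.0952, adjusted p 0.372) and in WKY males 0.177 (exact p 0.706, adjusted p 0.786). Of the 60 relations 9 had an unadjusted p under 0.05. In WKY females r was -0.705 for Urease subunits and -0.751 for Lactose utilization. It was 0.769 there for Mannitol Utilization and 0.757 for Fermentations: Lactate. In WKY males r was 0.892 for Mannitol Utilization, 0.781 for Fermentations: Lactate and 0.870 for Lactose and Galactose Uptake and Utilization. Without the 2 rats farthest from the median the values in WKY males became -0.043, 0.237 and -0.838. None of these passed (permutation adjusted p from 0.230 to 0.315). Glycerol fermentation had an r of 0.553 in SHR females and 0.549 in WKY females, and of 0.641 in SHR males and -0.502 in WKY males, and none passed (permutation adjusted p from 0.372 to 0.501). In WKY males the highest glycerol values, 116 to 183 in rats 2, 3 and 4, stood beside L. reuteri values of 10565 to 13719, whereas rats 5 and 6 with the most L. reuteri had 74.8 and 37.3.

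**Figure D5:**
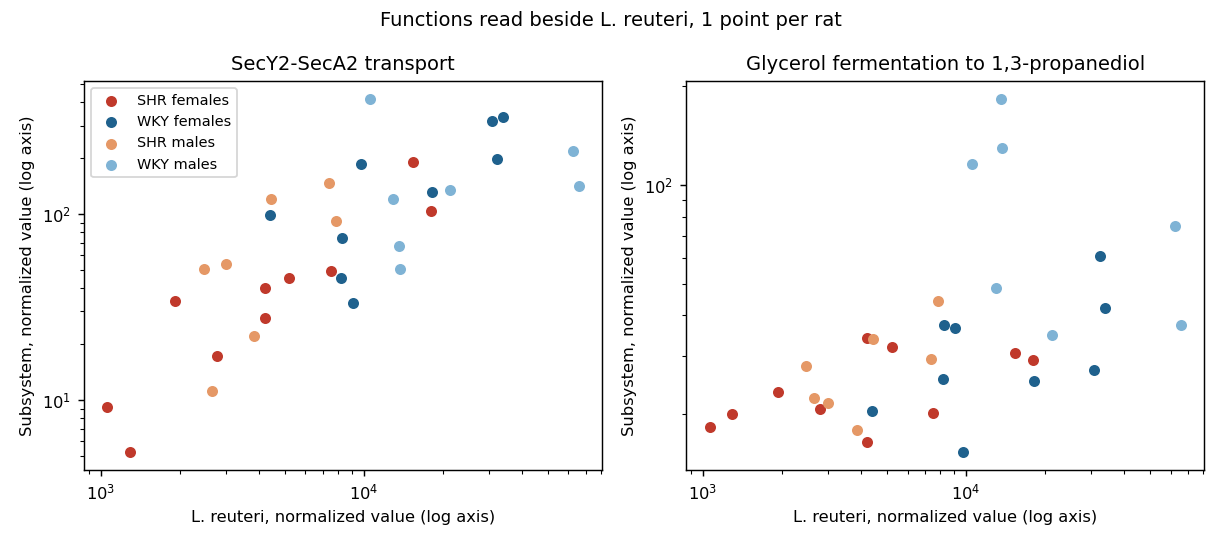
Normalized value of SecY2-SecA2 (left) and of glycerol fermentation to 1,3-propanediol (right) against that of L. reuteri, on log axes with 1 point per rat. Among SHR females SecY2-SecA2 goes with L. reuteri at an r of 0.922, and WKY males 2, 3 and 4 hold the highest glycerol values, 116 to 183.

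The authors' own models were deposited as tables of the taxa past a threshold, without the number tested, so no background share can be given for them. The name and the taxon identifier of a row disagreed in nearly all rows of the authors' deposited table of the general model: of 354 rows that could be compared 1 matched, and the mean normalized value in the row equalled that of the species with the row's identifier in 383 of 383 rows. Read by identifier, the authors' deposited table of the general model held all 7 species, with L. reuteri at a log2 fold change of 2.22 (adjusted p 0.000108), L. vaginalis at 3.99 (adjusted p 0.00247) and L. frumenti at 3.07 (adjusted p 9.22e-05). It held L. gastricus at 1.43 (0.00953), L. pontis at 1.38 (0.000224), L. fermentum at 1.30 (0.000284) and L. mucosae at 1.12 (0.00267). The direction of these values is not stated. All 7 were positive, whereas limma on normalized values gave 7 of 7 negative log2 fold changes for SHR minus WKY in each sex. The general model is labelled as DESeq2, and its mean values were those over all 33 rats of both sexes. The limma fits above differ in method and compared the strains within each sex. In them 1 of 7 passed between strains in each sex, and L. mucosae stood at -0.02 in females. Why the general model held more members was not tested. Read by the names, the authors' deposited table of the general model would have put the L. reuteri values under another species. In the authors' deposited table of the male model L. reuteri was the single member, at 2.66 ± 0.53 (SE) with an adjusted p of 0.00145, beside -2.68 from DESeq2 on the recovered reads for SHR minus WKY in males. The names and identifiers also disagreed in most rows of the other models, with 2 of 170 compared rows matching in the authors' deposited table of the female model and 2 of 31 in that of the male model. The authors' deposited table of the female model held 0 of the 7, by identifier and by name alike.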

How the data were processed

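Cecal DNA came from a bead-based soil kit and went into Nextera libraries, as the labels' protocols record. The tools listed there, per the submitters' processing notes, are Trimmomatic 0.36, cutadapt 2.6, FastQC 0.11.5 and DESeq2 without a version. The classifier that named reads is not given in the sources used here. The authors deposited bacterial species and genera as percent of reads, and taxa and functions as a normalized signal, the read count over a size factor. The authors' deposited model tables hold log2 fold changes, p-values and a standard error, taken as a score. Dividing by the value of 1 read gave whole reads for 100% of values (tolerance 0.01).

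The 7 members and all lists were chosen with earlier results of these data known. Text names all members, the listed functions, the 3 most abundant genera of each list and the 5 species most alike to L. reuteri. limma, with a variance trend and robust estimation, was fitted to log2(normalized value + 1) over 33 rats with 4 group means. It kept features at 10 or more in at least 7 rats: 4641 of 5999 bacterial species and 1418 of 1455 genera, plus 1024 functions with reads. A call is a 2-sided Benjamini-Hochberg adjusted p under 0.05. The scale understates changes of low taxa. Shares and ratios (reads + 1) were compared by 2-sided exact permutation of group means over every split of the rats. Relations used exact pairings, or 100000 resamples with 10 rats. Alternatives were percent of reads, centred log-ratio (reads + 0.5), pseudocounts, filters, a fit of 2 groups, fits without 1 rat or the 3 shallowest libraries, and edgeR and DESeq2 on recovered reads. The limma fit was tested on simulated data for SHR minus WKY in females, and the other tests were not. Fits ran in R 4.3.3 with DESeq2 1.42.0, edgeR 4.0.16 and limma 3.58.1. Other steps ran in Python 3.11.15 with scipy 1.17.1, pandas 2.3.3, matplotlib 3.10.9 and numpy 2.4.6.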

Additional observations from a re-analysis of the deposited data

Results flagged for a closer look

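L. pontis in WKY male 5 stood far from the other WKY males. Its log2(normalized value + 1) was 6.65, against 5.37 in the next highest WKY male, a gap of 0.606 of the group's whole range. The normalized value was 99.3, or 0.0125% of reads, from 97 reads. This was 1 flag among 32 groups of rats examined, 8 rows in 4 groups, and chance flags about 1 in 20. WKY male 5 also held the highest percent of each of the other 6 species and of the genus.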

How the results depend on the processing

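No paired analysis was possible because the replicate numbers only name rats within a group and the labels pair no rats. The count of members called between strains in females, 1, was 2 with percent of reads, a filter at 100, a fit with neither variance trend nor robust estimation, or without the 3 shallowest libraries, and 0 with the centred log-ratio, a pseudocount of 0.1, only the 2 groups fitted, edgeR or DESeq2, and 0 to 2 without 1 rat. In males, also 1, it was 2 with edgeR, 5 with DESeq2 and 0 to 2 without 1 rat. Between the sexes of WKY rats 0 became 1 with edgeR, 2 with DESeq2 and 0 to 1 without 1 rat. Of the functions, the 3 in females became 0 to 3 without 1 rat, the 1 in males 0 with a filter at 100 or only 2 groups fitted, and the 1 between WKY sexes 0 with only 2 groups, 3 with edgeR or DESeq2 and 0 to 3 without 1 rat. With the filter at 100 the subsystem called in males, Glycerol fermentation to 1,3-propanediol, was not tested, so that count is no lost call. The filter at 100 and the fits of 2 groups or fewer rats use fewer features or samples, and for the other settings the cause was not tested. Shares of all species called between strains stand above for percent of reads, edgeR, DESeq2 and, in females, without the shallowest libraries. For the remaining changed counts no such share is given, so they cannot be set against a background. Leaving out the 3 shallowest libraries also removed the 2 SHR females highest in L. reuteri and L. vaginalis, numbers 9 and 10.

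The genus passed in females with percent of reads (-1.53), a pseudocount of 0.1, a filter at 100 or neither trend nor robust estimation (each -1.92) and without the shallowest libraries (-2.42). In males it passed with percent of reads (-1.94), a filter at 100 (-2.34), without the shallowest libraries (-2.39), with edgeR (-2.75) and with DESeq2 (-2.75). Without 1 rat it ran from -2.14 to -1.72 in females and from -2.55 to -2.01 in males. Female minus male in SHR was 0.24 with edgeR, 0.26 with DESeq2 and -0.40 to 0.027 without 1 rat, and strain by sex was -0.031 without the shallowest libraries.

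Signs that turned belong to differences that did not pass. L. mucosae in females was 0.31 on percent of reads, 0.029 on the centred log-ratio and -0.12 to 0.11 without 1 rat. Female minus male in SHR, L. reuteri was -0.47 without the shallowest libraries and -0.23 to 0.23 without 1 rat. L. mucosae there was -0.063 without the shallowest libraries, -0.0081 with edgeR and -0.064 to 0.13 without 1 rat. Exopolysaccharide Biosynthesis there was -0.092 on the centred log-ratio, -0.011 with edgeR and -0.029 to 0.040 without 1 rat. Strain by sex, L. vaginalis was 0.51 with edgeR and 0.52 with DESeq2, and L. frumenti -0.11 to 0.65 without 1 rat. SecY2-SecA2 between WKY sexes was -0.35 to 0.15 without 1 rat.

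The share of L. reuteri in the genus, female minus male, was 9.17 to 12.98 points in SHR rats without 1 rat, and in WKY rats 4.03 with medians and -5.39 to 4.16 without 1 rat. The log2 ratio to Lactobacillus was -0.21 to 0.14 in females, -1.28 to -0.64 in males and -0.55 to 0.083 between WKY sexes without 1 rat. Of the ratios to L. reuteri, the 2 that passed in females became 0 with medians, 4 without the shallowest libraries and 0 to 4 without 1 rat, the 4 in males 0 with medians, and the 0 between SHR sexes 0 to 1 without 1 rat. Between SHR sexes the ratio of L. mucosae was -0.15 with medians and -0.23 to 0.25 without 1 rat, that of L. gastricus 0.013 without the shallowest libraries, and that of L. pontis 0.13 with medians, 0.45 without the shallowest libraries and -0.42 to 0.13 without 1 rat. Between WKY sexes L. gastricus was 0.041 with medians and -0.30 to 0.10 without 1 rat, L. vaginalis -0.55 to 0.35 and L. fermentum -0.10 to 0.14. Depth limits the rare species most, with as few as 2 reads for L. pontis.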
